A study of Arabidopsis thaliana with 12 samples.

Results

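The comparison described here set the pmr5 pmr6 double mutant of Arabidopsis thaliana against the pmr6 single mutant. It asks what difference loss of PMR5 makes in plants that already lack PMR6. Its members are 6 of the 12 arrays of the series, 3 of pmr5 pmr6 and 3 of pmr6, chosen by the genotype in the sample titles. The other 6 arrays, 3 of pmr5 and 3 of the wild-type accession Col-0, served to estimate the spread between arrays and to show the same pmr5 difference in plants with an intact PMR6. All plants were untreated, and rosettes were taken at 3 weeks of age from plants grown at 22 °C with 14 h of light. Labelled RNA, from 15 µg of total RNA per sample, was measured on the Affymetrix ATH1 array, where a probe set is a set of short DNA probes meant for 1 transcript. The labels name neither the pmr5 nor the pmr6 allele. They describe the replicates as biological but do not say how many plants went into each. The p-values therefore speak only for these samples, 3 per genotype. Each p-value rests on a spread pooled within all genotypes of the series and drawn toward that usual at the probe set's intensity. The arrays gave 8 residual degrees of freedom and the intensity trend 12 prior ones.

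Both genes were found in screens for mutants on which powdery mildew, a fungus that feeds on living leaf epidermis, grows poorly. PMR6 encodes a protein related to pectate lyases, enzymes that cleave the pectin of the plant cell wall. PMR5 belongs to a plant family whose known members act in the acetylation of wall polysaccharides. Walls of both mutants are known to be altered in pectin, and the series title presents the lines as cell wall mutants. Setting the double mutant against pmr6 asks what the loss of PMR5 adds once the pectate lyase-like protein is gone.

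No gene is named in what follows, because the row identifiers of the deposited table do not belong to the values beside them. For 179 row pairs annotated to the same gene, mean levels correlated at r = 0.06 and profiles over the 12 arrays at a mean of 0.03. Shifting the identifiers against the rows, in 2002 offsets and orders, gave no position at which both measures were highest. The best level correlation, 0.49, came with a profile correlation of 0.02, and the best profile correlation was 0.10. The profiles of the first 9 rows, which carry no control identifiers, correlated at a mean of 0.94. Probe sets are therefore called by their row number in the deposited table. For the same reason the PMR5 and PMR6 transcripts, and markers of leaf or other tissues, were not checked, and no sequence is shown. In RNA of whole rosettes, fewer cells of a type and less RNA per cell cannot be told apart.

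The arrays of both genotypes were alike in their overall signal. Median intensities were 187, 177.4 and 190.0 in pmr5 pmr6 and 174.8, 169.9 and 172.4 in pmr6, so the double-mutant arrays were slightly higher throughout. Rank correlations ran from 0.951 to 0.969 among the 3 pmr5 pmr6 arrays and from 0.966 to 0.971 among the 3 pmr6 arrays, against 0.947 to 0.967 between the genotypes. Replicate 3 of pmr5 pmr6 stood apart, with the lowest mean correlation to the other arrays (0.947) and a 5th percentile of 9.2, against 3.9 and 3.7 on the other pmr5 pmr6 arrays and 3.3 to 4.0 on the pmr6 arrays. Of the arrays outside the comparison, pmr5 replicate 1 had a raised dim end too, with a 5th percentile of 9.6. In the instrument record of pmr5 pmr6 replicate 2, a stain step is marked as stopped by the user. Each of 3 hybridization runs held 1 array per genotype, with pmr5 pmr6 always on fluidics module 4 and pmr6 always on module 3, so module and genotype cannot be told apart.

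Between pmr5 pmr6 and pmr6, 1409 of 17059 probe sets differed, 704 of them higher and 705 lower in pmr5 pmr6 (limma on log2(intensity + 28), Benjamini-Hochberg adjusted p under 0.05). That is 8.26% of the probe sets tested, with 4.13% in each direction. Increases were the larger changes. The median increase was 1.52-fold and the median decrease 1.35-fold, and 95% of decreases were smaller than 1.81-fold, against 2.77-fold for increases. At least 2-fold changes numbered 138 upward and 20 downward, and at least 3-fold changes 21 upward and 2 downward. Of these, 9 increases and 0 decreases reached 4-fold. The even number of increases and decreases depended on the scaling: with array medians set equal, 450 were called higher and 1174 lower. The median difference over all probe sets tested was 0.03 on the log2 scale in the deposited scaling and -0.06 with array medians set equal.

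For almost all of the called probe sets the arrays of both genotypes did not overlap. All 3 pmr5 pmr6 arrays lay above all 3 pmr6 arrays for 697 of the 704 increases, and below them for 696 of the 705 decreases. Over all probe sets tested, the same separation was found for 14.4% upward and 12.1% downward. The probe set just inside the threshold, row 20027, had 1728.6, 1719.7 and 1585 in pmr5 pmr6 and 1404.2, 1449.2 and 1310.7 in pmr6. Its difference was log2 0.27 (SE 0.08), and the arrays did not overlap. Just outside the threshold, row 20592 had 471.5, 454.8 and 550.9 in pmr5 pmr6 and 410.9, 392.9 and 245.5 in pmr6. The groups did not overlap there either, with a larger difference (log2 0.49) and a larger SE (0.15).

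Bright probe sets made up most of the decreases. In the brightest 25% of the probe sets, with a median intensity of 1625, 261 were called higher and 497 lower, or 17.8% of these. In the dimmest 25% of those tested, with a median intensity of 68.2, the counts were 73 and 10, or 1.95%. The median SE of a difference was 0.09 on the log2 scale in the brightest 25% and 0.34 in the dimmest, and the smallest changes called lay among bright probe sets. The median increase was 1.34-fold in the brightest 25% and 2.48-fold in the dimmest, and the median decrease 1.31-fold and 2.35-fold. Of the 138 increases of at least 2-fold, 63 lay in the dimmest 25% and 11 in the brightest.

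The largest increase on this scale was that of row 10373, a probe set of middle brightness. With a pseudocount of 4 in place of 28 it stood at log2 3.046. Among the 12 largest increases, rows 13438 (3.743), 12559 (3.269) and 10782 (3.076) then lay above it, and row 22317 was not among those tested. Other probe sets were not ranked at that setting. Row 10373 had 1457.4, 809.4 and 1045.6 in pmr5 pmr6, against 147.8, 147 and 92.7 in pmr6. Every double-mutant array was several times as bright as every pmr6 array. The difference was 7.11-fold (log2 2.83, SE 0.40, limma adjusted p = 0.00013). Intensities were also higher in pmr5, at 438 ± 105, than in Col-0, at 110 ± 110 (SD, n = 3 each), a called difference of log2 2.11 (limma adjusted p = 0.0018).

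Row 13438 was dim in pmr6 and not in the double mutant. It had 369.4, 263.4 and 225.9 in pmr5 pmr6, against 6.6, 32.2 and 20.9 in pmr6. Its pmr6 values were below or near the pseudocount of 28, so the 6.61-fold difference on this scale (log2 2.72, SE 0.31, limma adjusted p = 1.6e-05) understates the ratio of the intensities. The pmr5 arrays stood at 191 ± 30.8 and the Col-0 arrays at 38.1 ± 25.8 (SD, n = 3 each).

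Row 7623 had 629.5, 434.7 and 777 in pmr5 pmr6, against 99.2, 80.3 and 78.4 in pmr6. The pmr6 arrays lay close together and far below the double mutant. The difference was log2 2.46 (SE 0.39, limma adjusted p = 0.00044). In pmr5 the mean was 154 ± 45.8 and in Col-0 65.8 ± 80.3 (SD, n = 3 each).

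Row 15010 had the smallest SE among the 12 largest increases. Its intensities were 1096.9, 897.9 and 907.3 in pmr5 pmr6, against 122.8, 193.2 and 197.9 in pmr6. The double mutant was log2 2.34 higher (SE 0.15, limma adjusted p = 1.3e-08). The pmr5 mutation alone gave nearly the same picture, with 861, 840 and 761.1 in pmr5, against 138.4, 145.8 and 166.6 in Col-0. That difference was log2 2.25 (SE 0.15, limma adjusted p = 1.3e-08), and the difference between the backgrounds was log2 0.09 (SE 0.21, limma adjusted p = 0.95). Both genotypes with an intact PMR5 were at the low level and both without it at the high level.

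Row 1343 was among the brightest probe sets of the table, at percentile 97.5 of the mean levels tested. It had 20593.4, 18390.8 and 21226.1 in pmr5 pmr6, against 5036, 4700.6 and 4374 in pmr6. The increase was 4.25-fold (log2 2.09, SE 0.28, limma adjusted p = 0.0001), far above the dim end of the scale. The pmr5 arrays had 11961.2, 10208.8 and 7928.5 and the Col-0 arrays 4508.6, 1672.4 and 1132.9, a difference of log2 2.26. The double mutant lay above all 9 other arrays.

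Row 22317 was listed near the bottom of the scale in pmr6. It had 148.7, 148.7 and 171.3 in pmr5 pmr6, against 8.8, 11.1 and 8.5 in pmr6. The 3 arrays of each genotype lay close together, and the double mutant was log2 2.30 higher (SE 0.38, limma adjusted p = 0.00056). Col-0 stood at 11.1 ± 4.59, while the pmr5 arrays were spread over 35.5, 12.2 and 76.6. The pmr5 difference in Col-0, log2 0.73, was not called (limma adjusted p = 0.29), and the difference between the backgrounds did not pass either (log2 1.57, limma adjusted p = 0.39).

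The other 6 of the 12 largest increases ran from log2 1.88 (row 9090) to 2.27 (row 12559). In 10 of the 12 the mean in pmr6 was under 150. The double-mutant arrays lay above all 9 other arrays in 11 of the 12. The exception was row 12559, where pmr5 pmr6 replicate 2 stood at 103.1 and pmr5 replicate 1 at 125.1. The pmr5 mutation was called in Col-0 for 7 of the 12, each time as an increase. Row 9090 was the only one of them to lose its call when an array of pmr5 pmr6 or pmr6 was left out (highest limma adjusted p 0.08).

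The largest decrease on this scale was that of row 15595. With a pseudocount of 4 it stood at log2 -1.971. Among the 12 largest decreases, rows 13239 (-2.432), 16976 (-2.12), 12656 (-2.075) and 17463 (-1.976) then lay below it. Row 15595 had 175.4, 80.7 and 260.1 in pmr5 pmr6, against 498.3, 617.5 and 771.2 in pmr6. The fall by 1.80 on the log2 scale (SE 0.24, limma adjusted p = 7.3e-05) is 3.49-fold. The level was 681 ± 124 in pmr5 and 707 ± 87.5 in Col-0 (SD, n = 3 each), so the 3 double-mutant arrays were the lowest of the 12 and no single mutant approached them. The effect of pmr5 differed between the backgrounds there by log2 -1.74 (SE 0.33, limma adjusted p = 0.039), a call that was lost in 16 of 26 alternatives.

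Row 6124 fell in both backgrounds. It had 230.7, 167.4 and 211 in pmr5 pmr6, against 575.5, 540.7 and 581.7 in pmr6. The difference was log2 -1.37 (SE 0.13, limma adjusted p = 1.9e-06), 2.59-fold lower. In pmr5 it had 369.2, 456 and 386.4, against 907.2, 1123.6 and 1055.7 in Col-0, a difference of log2 -1.29 (SE 0.13, limma adjusted p = 1.8e-06). Each genotype held a level of its own, with no overlap between any of the 4.

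Row 14399 was the brightest of the 12 largest decreases. It had 897.3, 942.8 and 1030.8 in pmr5 pmr6, against 2490.8, 2259.4 and 2462.8 in pmr6. With a difference of log2 -1.31 it had the smallest SE of the 24 probe sets described (0.10, limma adjusted p = 1.6e-07). The mean was 1534 ± 251 in pmr5 and 3209 ± 268 in Col-0 (SD, n = 3 each), log2 -1.06. The 4 genotypes again did not overlap.

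Row 19654 showed a different pattern of levels. It had 239.9, 239.2 and 265.5 in pmr5 pmr6, against 586.4, 697.6 and 568.4 in pmr6. The pmr5 arrays, at 233.9, 222.9 and 206, were as low as the double mutant, and the Col-0 arrays, at 677.8, 768.6 and 782.8, were near pmr6. The difference was log2 -1.22 against pmr6 (SE 0.12, limma adjusted p = 2.5e-06) and log2 -1.63 in pmr5 against Col-0 (limma adjusted p = 6.6e-08).

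Row 16976 was less even, with 139.7, 92.7 and 11.5 in pmr5 pmr6 and 275.9, 241.3 and 253.9 in pmr6. Replicate 3 of pmr5 pmr6 was far below the other double-mutant arrays. The difference of log2 -1.62 (SE 0.36, limma adjusted p = 0.0063) was -1.0 without that array and -2.04 without pmr5 pmr6 replicate 1. The means in pmr5, 200 ± 55.5, and in Col-0, 124 ± 31.1 (SD, n = 3 each), both lay below that of pmr6.

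The remaining 7 of the 12 largest decreases had means of 12.4 to 87.9 in pmr5 pmr6 and 77.0 to 256 in pmr6. Their differences ran from log2 -1.44 (row 13239) to -1.23 (row 1123). Each lost its call when at least 1 array of pmr5 pmr6 or pmr6 was left out, with limma adjusted p up to 0.25, and none of the 7 was called in pmr5 against Col-0. The 5 decreases described singly above kept their calls.

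**Figure D1:**
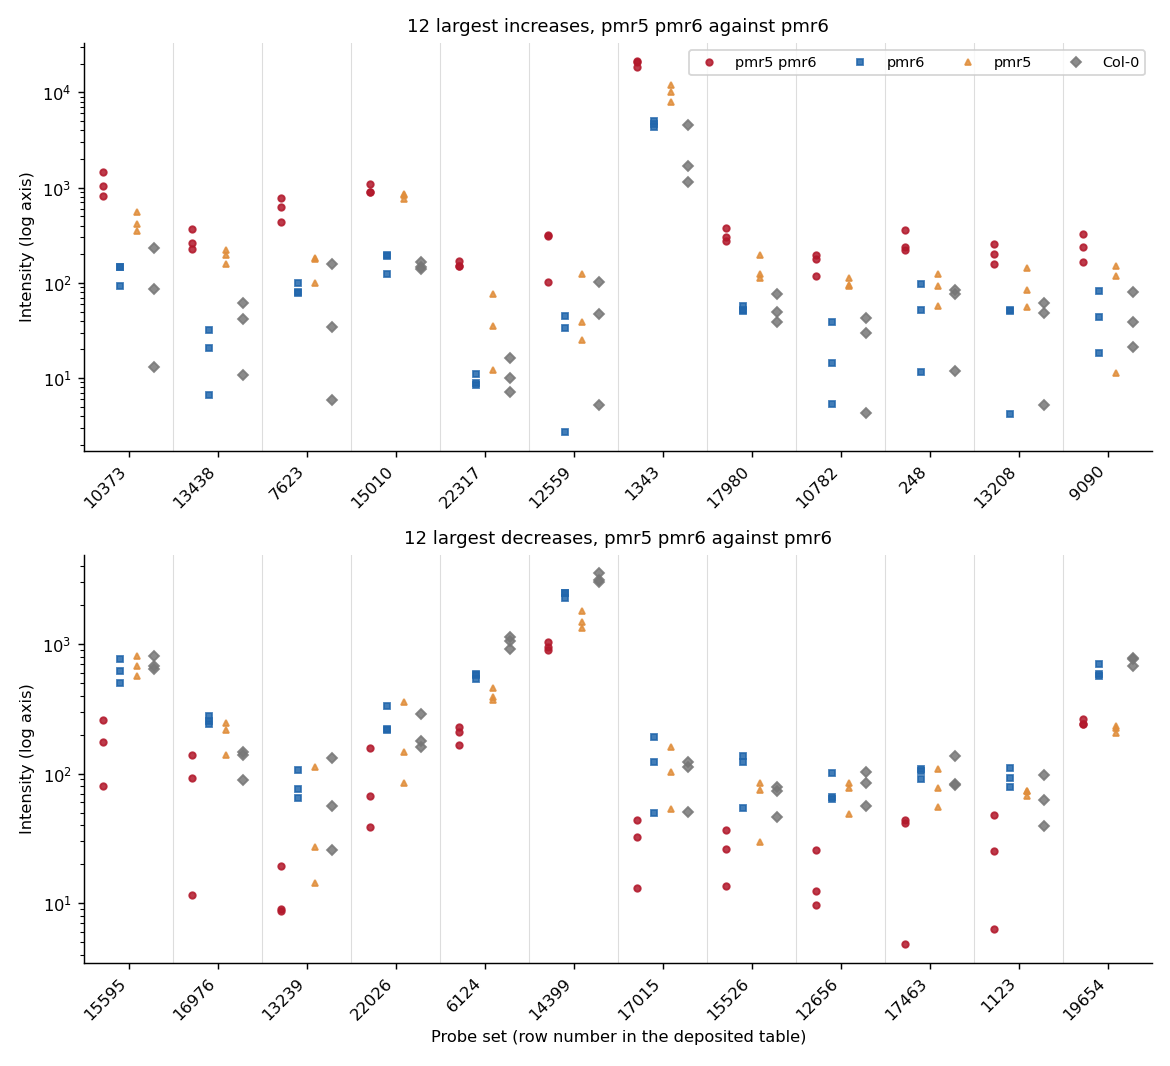
Intensity on every array, on a log axis, of the 12 probe sets with the largest increase (top) and the 12 with the largest decrease (bottom) in pmr5 pmr6 against pmr6, each column a row of the table with its 3 arrays per genotype. The pmr5 pmr6 points (red) lie apart from the pmr6 points (blue) in every column, which was a condition of the choice. In 11 of the upper 12 columns the red points lie above all other points.

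The difference was present in each hybridization run. Among the 704 increases, the median difference between the pmr5 pmr6 and the pmr6 array of a run was log2 0.63, 0.60 and 0.58 in runs 1, 2 and 3, and 701 were positive in all 3. Among the 705 decreases the medians were -0.44, -0.41 and -0.44, and 702 were negative in all 3. These runs took part in making the calls, so the directions were also read in a run that did not. With run 1 left out 607 probe sets were called, and 95.4% of them differed in the same direction within run 1. For run 2 this held for 97.7% of 558, and for run 3 for 92.7% of 845. Over all probe sets tested, the median difference was log2 0.03, 0.01 and 0.03 in runs 1, 2 and 3. A left-out run had the same modules per genotype, so it cannot tell module from genotype.

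**Figure D2:**
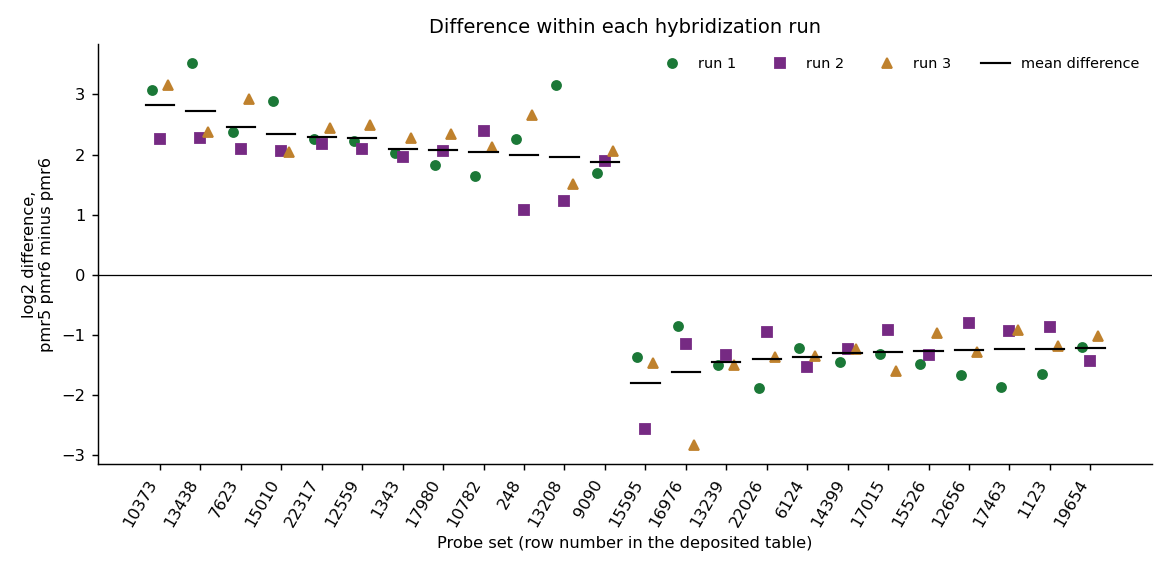
Log2 difference of pmr5 pmr6 minus pmr6 within each of the 3 hybridization runs, for the 12 largest increases (left) and the 12 largest decreases (right), with the mean difference as a line. All points lie on the side of 0 of their mean, which choosing probe sets without overlap between the genotypes fixed in advance. Row 13208 ran from log2 1.22 in run 2 to 3.15 in run 1, and row 16976 from -0.86 in run 1 to -2.83 in run 3.

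Single arrays weighed on the count. Leaving out pmr6 replicate 3 gave 773 calls. Leaving out replicate 1 or 2 of the double mutant gave 818 and 939. Without pmr5 pmr6 replicate 3, the array that stood apart, 1260 were called, and 1067 of these were among the 1409. That array was the least extreme of its genotype. It was the lowest of the 3 double-mutant arrays in 369 of the 704 increases, against 212 for replicate 2 and 123 for replicate 1. Among the 705 decreases it was the highest in 313, against 234 and 158.

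The same mutation could be followed in plants with PMR6 through pmr5 against Col-0, which shares no array with pmr5 pmr6 against pmr6. In pmr5 against Col-0, 1378 probe sets were called (8.08%), 715 higher (4.19%) and 663 lower (3.89%). That count was 784 without pmr5 replicate 1 and 902 without Col-0 replicate 3. Of the 704 increases in the pmr6 background, 663 were above 0 in the Col-0 background, against 9341 of all 17059 probe sets tested. Their median difference was log2 0.60 in the pmr6 background and 0.41 in the Col-0 background, where the median over all probe sets tested was 0.03. Of the 705 decreases, 635 were below 0 in the Col-0 background, against 7718 of all tested, with medians of log2 -0.43 and -0.29.

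About the same share was called in the other background in either direction of reading. The 342 probe sets called higher in both were 48.6% of the increases in the pmr6 background and 47.8% of those in the Col-0 background. The 320 called lower in both were 45.4% and 48.3%. Lists chosen in Col-0 had the larger median there: the 715 increases stood at log2 0.60 in Col-0 and 0.40 in the pmr6 background, and the 663 decreases at -0.41 and -0.30. In each list the comparison that chose the probe sets had the larger median. Both lists rest on the same estimate of each probe set's spread, and in both a probe set with a small spread is more readily called.

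Changes of at least 2-fold were also read in the other background. Of the 138 that reached 2-fold in the pmr6 background, 86 (62.3%) were called higher in pmr5 against Col-0, 135 were above 0, and the median there was log2 1.04. Of the 20 decreases that reached 2-fold, 8 (40.0%) were called lower in Col-0, 17 were below 0, and the median there was log2 -0.35 against -1.24 in the pmr6 background. The difference between these shares was not tested.

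Probe sets called in the pmr6 background and not in Col-0 numbered 362 upward and 383 downward. Such a call in only 1 background does not show that the backgrounds differ. Their medians in Col-0 were log2 0.21 and -0.17, and 321 and 315 of them had the same sign there. The difference between backgrounds itself was called for 1 of the 362 and 2 of the 383, against 20 of all 17059 tested (0.117%). These counts are too small to compare.

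**Figure D3:**
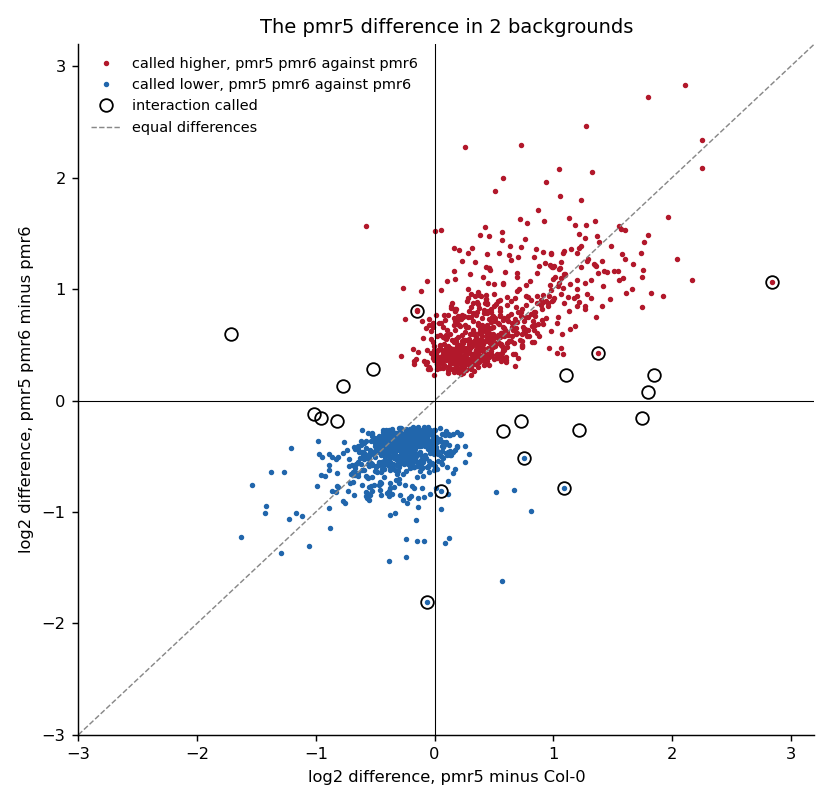
Log2 difference of pmr5 minus Col-0 (horizontal) against that of pmr5 pmr6 minus pmr6 (vertical) for the 704 probe sets called higher (red) and the 705 called lower (blue) in pmr5 pmr6, with the 20 probe sets of the interaction circled and equal differences dashed. Most red points lie to the right of 0 and most blue points to the left, and 13 of the circled probe sets were not called in pmr5 pmr6 against pmr6.

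A difference between the backgrounds was called for 20 of the 17059 probe sets (0.117%; limma interaction test, adjusted p under 0.05), 7 above and 13 below. The count was small in several settings: 3 when pmr6 replicate 2 was left out, 4 when pmr5 replicate 1 or Col-0 replicate 3 was, 7 when double-mutant replicate 1 or pmr6 replicate 3 was, and 8 when double-mutant replicate 3 was. It was 33 without Col-0 replicate 2. The median SE of this difference was 0.22, against 0.15 for a comparison of a pair of genotypes. For 13 of the 20, pmr5 was called against Col-0 and not in the pmr6 background. Among those 13, the pmr5 difference in Col-0 was log2 0.58 to 1.85 in 7 probe sets and -1.71 to -0.51 in 6, against -0.27 to 0.60 for all 13 in the pmr6 background.

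Row 18395 is an example of these 13. It had 2426.6, 3753.5 and 3098.3 in pmr5 pmr6, against 3542.7, 3793.6 and 2921.9 in pmr6, with a difference of log2 -0.16 that was not called (limma adjusted p = 0.77). In pmr5 it had 3483.4, 4034.4 and 1662.9, against 931.6, 1020.6 and 608.6 in Col-0 (log2 1.75, limma adjusted p = 5.2e-05). All 3 mutants overlapped at a high level and Col-0 lay below them.

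Another is row 18356, with 3582.4, 3477.7 and 3816.6 in pmr5 pmr6 and 3708.4, 4249.9 and 4471.3 in pmr6. Here Col-0 was the high genotype, at 6406, 6406.9 and 6114.4, against 3548.7, 3652.9 and 3459.2 in pmr5. The pmr5 difference was log2 -0.19 in the pmr6 background (limma adjusted p = 0.15) and -0.82 in Col-0 (limma adjusted p = 1.3e-06). In row 12112 the pmr6 mean was 52.4 ± 10.8 and that in pmr5 pmr6 101.5 ± 61.6, while pmr5 stood at 54.5 ± 9.67 and Col-0 at 244 ± 46.1 (SD, n = 3 each). At that pmr6 level a fall of the log2 size seen in Col-0 would lie below an intensity of 0. This scale could not have shown such a fall in full. The double mutant was not lower there but log2 0.60 above pmr6, which was not called (limma adjusted p = 0.24). How much the scale added to the interaction was not tested. The interaction calls of rows 18395 and 18356 were each lost in 11 of 26 alternatives, and that of row 12112 in 12 of 25.

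For 4 of the 20, pmr5 was called in both backgrounds. Row 9594 changed in opposite directions. It had 269, 358.2 and 260.1 in pmr5 pmr6, against 503.5, 554 and 517.4 in pmr6, a fall by 0.78 on the log2 scale (SE 0.15, limma adjusted p = 0.0021). In pmr5 it had 443.5, 409 and 352.2, against 190.2, 194.2 and 139.9 in Col-0, an increase of log2 1.09 (SE 0.15, limma adjusted p = 7.2e-05). The difference between the backgrounds, log2 -1.87 (SE 0.21, limma adjusted p = 0.00037), kept its call in all 26 alternatives tried. Row 13269 moved in the same manner, with 799 ± 52.2 in pmr5 pmr6 against 1156 ± 89.7 in pmr6 (log2 -0.52, limma adjusted p = 0.02), and 974 ± 127 in pmr5 against 573 ± 139 in Col-0 (log2 0.76, limma adjusted p = 0.0011; SD, n = 3 each). These were the 2 probe sets called in opposite directions in the 2 backgrounds.

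Row 10504, which had the largest increase of all probe sets in pmr5 against Col-0, rose less where PMR6 was missing (interaction log2 -1.78, SE 0.26, limma adjusted p = 0.0087). It had 444.4, 313.8 and 324.6 in pmr5 pmr6, against 209.1, 114.7 and 157.6 in pmr6 (log2 1.06, SE 0.18, limma adjusted p = 0.00087). In pmr5 it had 1199.7, 1491.2 and 1468.7, against 217.6, 156.3 and 139.2 in Col-0 (log2 2.84, SE 0.18, limma adjusted p = 1.3e-08). The pmr5 arrays stood far above the double mutant. Row 2761 also increased in both backgrounds, by log2 0.43 in pmr6 (limma adjusted p = 0.024) and 1.37 in Col-0 (limma adjusted p = 4.4e-07). The interaction call was lost in 4 of 26 alternatives for row 13269, in 3 for row 10504 and in 12 for row 2761.

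The last 3 of the 20 were called in the pmr6 background and not in Col-0. Besides row 15595, these were row 1463 and row 20519, whose interaction calls were lost in 16 and 17 of 26 alternatives. Row 1463 had 562.9, 557.5 and 501.6 in pmr5 pmr6, against 1124.8, 894.3 and 898.6 in pmr6, while pmr5 stood at 883 ± 90.3 and Col-0 at 853 ± 114 (SD, n = 3 each). It was lower in the double mutant alone (log2 -0.81, limma adjusted p = 0.00013). Row 20519 was higher there, with 2695.5, 2383.1 and 2024.1 in pmr5 pmr6, against 1468.7, 1129.7 and 1423.9 in pmr6 (log2 0.81, limma adjusted p = 0.00044), and 1399 ± 171 in pmr5 against 1565 ± 291 in Col-0. For these 3 probe sets the 3 double-mutant arrays lay beyond all 9 other arrays.

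**Figure D4:**
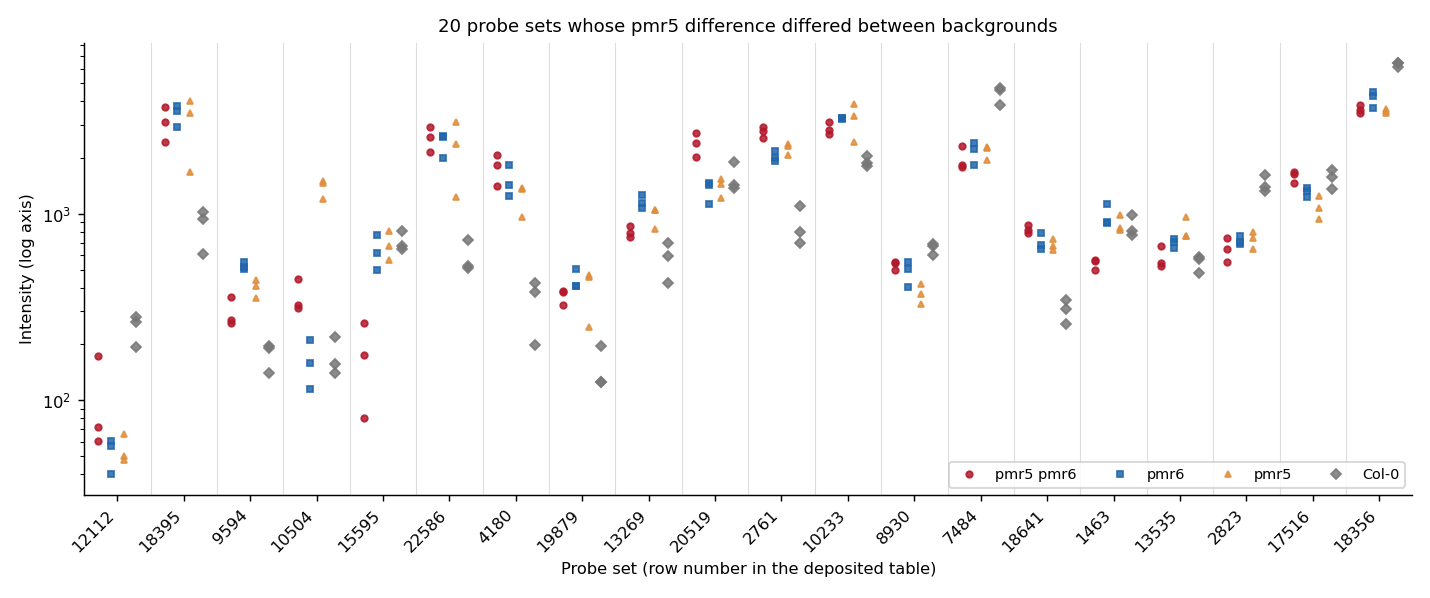
Intensity on every array, on a log axis, of the 20 probe sets whose pmr5 difference was called as differing between the pmr6 and Col-0 backgrounds, ordered by the size of that difference. In most columns Col-0 (grey) stands apart from the 3 mutants, in row 10504 the pmr5 arrays (orange) do, and in rows 15595, 1463 and 20519 the pmr5 pmr6 arrays (red) do.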

How the data were processed

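The authors deposited a table of linear intensity values with 22810 rows and 1 column per array. As read from the values, the authors had scaled the arrays to a common mean, trimmed by 2% of rows at either end. The software behind these values was not given in the sources used here. Hybridization times and modules come from the instrument records, per the file headers; arrays at most 30 minutes apart were 1 run.

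Intensities were turned to log2(intensity + 28). Rows labelled as AFFX controls (64) were removed, then the dimmest 25% of the rest by mean, which kept 17059. The first 64 rows of the table may hold the controls instead; 35 of them were tested and 0 called in limma, and the first 9 were all tested. A model of 4 genotype means over 12 arrays was fitted with limma 3.58.1 in R 4.3.3 (eBayes with an intensity trend, 8 residual and 12 prior degrees of freedom) and tested on simulated data. The number of arrays limits the precision. The interaction is pmr5 pmr6 minus pmr6, less pmr5 minus Col-0. Replicate numbers equal hybridization runs, per the file headers; deviations of same-numbered arrays correlated at 0.02 to 0.03, and the model has no block. Described were the 12 largest called changes per direction whose arrays did not overlap, the probe sets nearest the threshold, and those with the largest interactions. The comparison and rules were chosen with earlier results of these data known. Gene lists were not used because rows are unnamed. Figures were drawn with matplotlib 3.10.9.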

Additional observations from a re-analysis of the deposited data

Results flagged for a closer look

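By limma's interaction test, 20 probe sets had a pmr5 difference that was unequal in the pmr6 and Col-0 backgrounds, and 1474 had an unadjusted p under 0.05. The 7 above 0 had interactions of log2 2.31, 0.96, 0.90, 0.89, 0.80, 0.80 and 0.64. The 13 below 0 had -1.90, -1.87, -1.78, -1.74, -1.72, -1.62, -1.48, -1.27, -0.95, -0.91, -0.88, -0.86 and -0.85. All 20 kept their sign in every alternative tried, while single calls were lost in 263 of 519 values.

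Among the 64 rows labelled as AFFX controls, left out of the comparison, 1 was called in pmr5 pmr6 against pmr6 when all rows were fitted together in limma. It stood at 78.8 ± 49.0 in pmr5 pmr6 and 12 ± 7.67 in pmr6 (SD, n = 3 each; log2 1.34, limma adjusted p = 0.032). That is 1.56% of these rows, against 5.41% of all other rows fitted with no dim filter.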

How the results depend on the processing

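The count of 1409 was 677 without the variance trend, and 643 of those were among the 1409. A minimum of 2-fold left 158. Leaving out 1 array, or 1 hybridization run of 4 arrays (added after seeing the data), gave 558 to 1494. With the replicate block (the hybridization run) 1475 were called, 1363 of them shared, and the count of interactions moved by less than 1.5 times. Fitting only the 6 arrays of both genotypes gave 1553. The interaction count of 20 was 1 without the variance trend, 3 with no dim filter, 12 with the robust trend, 6 without both pmr5 replicate 1 and pmr5 pmr6 replicate 3, 9 with a minimum of 2-fold, and 1 to 33 with an array or run left out. For pmr5 against Col-0, 1378 became 645 without the variance trend, 886 without both arrays, 191 with a minimum of 2-fold, and 633 to 1460 with an array or run left out. The cause was not tested, except that a fold minimum can only remove calls. Among the 24 largest differences no direction reversed, and 558 of 630 values under the alternatives stayed called. Signal near background limits the dim decreases: row 13239, at 12.4 ± 6.09 in pmr5 pmr6 and 82.5 ± 22.1 in pmr6, kept its call in 11 of 26 alternatives.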
